A study of Mus musculus with 4 samples.

Results

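Autotaxin, the lysophosphatidic acid (LPA) receptors and the lipid phosphate phosphatases were followed through 10 genes in cultured mouse cardiac fibroblasts. The members were *Enpp2*, which encodes autotaxin, its relatives *Enpp1* and *Enpp3*, the receptor genes *Lpar1*, *Lpar2*, *Lpar3* and *Lpar4*, and the phosphatase genes *Ppap2a*, *Ppap2b* and *Ppap2c*, now named *Plpp1*, *Plpp3* and *Plpp2*. Every probe set annotated to 1 of these symbols was taken, which gave 27 of 45037 probe sets and 10 of 20586 genes. The members were chosen by the difference between PMCA4-/- and WT arrays, which was already known, so that difference is described below and not tested.

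Fibroblasts came from 3-month-old male WT and PMCA4-/- mice and were kept in culture for 4 days in a medium that contained fetal bovine serum. PMCA4-/- mice lack plasma membrane calcium ATPase 4, a pump that exports calcium, in every cell, since exon 2 of its gene, with the start codon, and a stretch of exon 3 were removed. In each genotype 1 array read untreated cells and 1 array read cells exposed for 72 h to phenylephrine, which stimulates α1-adrenergic receptors, at 30 µM. RNA had been pooled from 3 batches of fibroblasts, and each of the 4 conditions has 1 Affymetrix array here, with no replicate error for any value. The study's methods also name 3 RNA pools for each genotype, and how these relate to the single arrays is not known here.

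Autotaxin is a secreted lysophospholipase D that makes LPA from lysophosphatidylcholine outside the cell. LPA acts through G-protein-coupled receptors that reach Gi, Gq and G12/13 proteins, and it is known as a growth and migration signal for fibroblasts. Lipid phosphate phosphatases are membrane enzymes that remove the phosphate from extracellular LPA. ENPP1 belongs to the same family as autotaxin but cleaves nucleotides, releasing pyrophosphate from ATP, and ENPP3 also acts on nucleotides.

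The 250 bases before the gene start were read for the members, because the members of a family differed between the genotypes in opposite directions. RefSeq promoter sequences on GRCm38.p6 were found for 8 of the 10 members, in 10 windows, with none for *Enpp2* and *Ppap2a*. Shown are the windows of *Enpp1* and *Enpp3*, which lie next to each other on chromosome 10, of *Lpar1*, from the most upstream of its 3 starts, and *Lpar4*, the 2 member receptor genes above the filter on mean intensity, and of *Lpar2*, which held the only NF-κB match. Capitals mark matches, on either strand, to 4 motifs of factors that respond to calcium or to NF-κB signalling, namely NF-κB (GGGA and TTCC with any 2 bases between them), the NFAT core (GGAAA), the core of the cAMP response element (TGACG) and AP-1 (TGANTCA).
*Enpp1*, chr10:24712160-24712409, minus strand: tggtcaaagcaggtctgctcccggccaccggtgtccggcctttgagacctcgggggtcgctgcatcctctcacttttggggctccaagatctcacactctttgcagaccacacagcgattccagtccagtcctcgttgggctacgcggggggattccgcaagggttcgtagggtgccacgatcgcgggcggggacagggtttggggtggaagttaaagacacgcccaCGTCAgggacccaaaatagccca
*Enpp3*, chr10:24836196-24836445, minus strand: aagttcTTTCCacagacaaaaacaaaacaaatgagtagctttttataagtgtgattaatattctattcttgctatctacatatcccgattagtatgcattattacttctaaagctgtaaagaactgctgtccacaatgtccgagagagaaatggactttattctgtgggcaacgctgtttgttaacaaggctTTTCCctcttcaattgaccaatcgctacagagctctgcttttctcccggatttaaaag
*Lpar1*, chr4:58553492-58553741, minus strand: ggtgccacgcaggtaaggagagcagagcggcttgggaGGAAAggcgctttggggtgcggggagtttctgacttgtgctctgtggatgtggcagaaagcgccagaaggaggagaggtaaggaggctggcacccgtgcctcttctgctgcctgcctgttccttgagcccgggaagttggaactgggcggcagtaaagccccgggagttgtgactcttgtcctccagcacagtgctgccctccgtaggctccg
*Lpar4*, chrX:106920375-106920624, plus strand: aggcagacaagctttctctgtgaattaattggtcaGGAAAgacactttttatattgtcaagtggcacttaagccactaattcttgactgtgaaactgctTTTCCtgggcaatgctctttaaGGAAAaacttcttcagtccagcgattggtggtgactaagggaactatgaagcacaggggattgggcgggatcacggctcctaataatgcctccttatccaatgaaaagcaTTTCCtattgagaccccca
*Lpar2*, chr8:69822315-69822564, plus strand: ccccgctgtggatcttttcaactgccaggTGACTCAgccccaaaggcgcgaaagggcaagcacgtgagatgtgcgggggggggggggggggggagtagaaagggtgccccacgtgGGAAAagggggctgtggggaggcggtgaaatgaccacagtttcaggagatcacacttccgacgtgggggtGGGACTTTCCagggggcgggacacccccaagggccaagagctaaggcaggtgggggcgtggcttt

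The NFAT core occurred in 6 of the 10 member windows, from 5 genes, against 55.6% of all 32851 windows of this length in the table. The *Lpar4* window held 4 NFAT cores, and those of *Enpp3*, *Lpar2*, *Ppap2b* and 1 of the 3 *Lpar1* starts held 2 each. The *Enpp1*, *Lpar3* and *Ppap2c* windows held none, so members lower and members higher in PMCA4-/- fibroblasts were found with and without this core. *Lpar2* had the only NF-κB match among the members, starting 65 bases before the gene start, and 1.21% of all windows had such a match. This match contains an NFAT core on the other strand, so the same letters count for both motifs. A core of the cAMP response element was present only in the *Enpp1* window, against 17.8% of all windows, and AP-1 only in the *Lpar2* window, against 6.75%. The *Enpp1* and *Enpp3* windows also differed in base composition, with 61.2% and 36.8% G and C.

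The values are intensities on a linear scale in arbitrary units, estimated by the authors with PUMA, which models the error of each probe and returns values close to 0 for dim probe sets, and again with Robust Multiarray Average. Where a genotype has 2 values, the untreated array comes first. Levels of different probe sets are not comparable with each other, so each probe set is compared only with itself across arrays. The median PUMA intensity was 33.98 to 34.03 on the 4 arrays, and a value under it is called dim here. Where 1 side of a ratio was dim, it was raised to the array median. The ratio is then given as a lower bound, which holds only within the estimate it came from. Over the 11424 genes with a mean intensity above 35.15, log2 values correlated at 0.995 between the arrays of each genotype and at 0.857 to 0.860 between genotypes, across genes, which are not independent replicates.

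Of the 10 fibroblast markers, 9 were above the median on all arrays, and their summed intensity was 73426 to 79047. All 3 cardiomyocyte markers measured were dim on all arrays. The 6 smooth muscle and pericyte markers summed to 464 and 472 in WT against 260 and 258 in PMCA4-/- fibroblasts. *Rgs5* made up most of the gap, at 185 and 186 against 30.3 and 34.4. *Notch3* read 176 and 183 against 116 and 103, and *Cspg4*, higher in PMCA4-/- fibroblasts with phenylephrine only, 93.1 and 84 against 88.9 and 110. *Myh11*, *Des* and *Mcam* were dim throughout. The 6 macrophage markers summed to 614 and 688 against 896 and 1005. *Csf1r* made up most of that gap, at 153 and 180 against 378 and 492. *Lyz2* read 379 and 422 against 441 and 431, and *Adgre1* 43.9 and 49.4 against 44.5 and 39.9. *Ptprc*, *Cd68* and *Itgam* were dim throughout. The 5 adipocyte markers summed to 1981 and 2328 against 3062 and 3311. *Fabp4* read 505 and 626 against 1272 and 1500, and *Lpl* 1197 and 1436 against 1600 and 1577. *Pparg* went the other way, at 265 and 260 against 187 and 227, and *Adipoq* and *Cidec* were dim throughout. Such sums add probe sets whose levels are not comparable with each other. The part of these cells in the differences below was not tested, and in pooled RNA fewer cells of a type and less RNA per cell cannot be told apart. The gene of PMCA4, *Atp2b4*, was read by 1 probe set, at 19.6 and 23.3 on the WT arrays and 31.6 and 37.9 on the PMCA4-/- arrays. Whether this probe set lies in the removed exons is not known here, and it cannot serve as a check of the genotype.

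*Enpp2* separated the genotypes more than any other member. At probe set 1448136_at, its brightest, the PUMA intensity was 2105 in untreated WT and 2062 in phenylephrine-treated WT fibroblasts, and 0.0654 and 1.09 in untreated and treated PMCA4-/- fibroblasts. Both WT arrays were far above the array median and both PMCA4-/- arrays far below it. By PUMA the level was therefore at least 61.9-fold lower in PMCA4-/- fibroblasts without phenylephrine and at least 60.7-fold lower with it.

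A second *Enpp2* probe set, 1415894_at, repeated the order, with 462 and 467 in WT against 0.707 and 0.910 in PMCA4-/- fibroblasts. Its PUMA bounds were at least 13.6-fold and at least 13.7-fold. By Robust Multiarray Average it read 627 and 508 against 90.9 and 82.7, which is 6.91-fold and 6.14-fold lower. All 4 of these values were above the array median. The third, 1443224_at, was dim on all arrays, between 0.514 and 2.51, and carries no information on direction. In the Robust Multiarray Average values, 1448136_at read 3016 and 2875 in WT against 59.1 and 89.4 in PMCA4-/- fibroblasts, which is at least 41.3-fold lower untreated, where the PMCA4-/- value was under the array median, and 32.1-fold lower with phenylephrine. The separation of the genotypes was thus present in both estimates, and its size depended on how each estimate treats dim probe sets. On chromosome 15 the nearest genes above the filter on mean intensity did not share the *Enpp2* difference. *Ccn3* on one side differed by 0.48 and 0.41 on the log2 scale, and *Taf2* on the other by -0.03 and -0.17.

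*Enpp1*, the pyrophosphate-generating relative, was lower in PMCA4-/- fibroblasts at all 3 of its probe sets. At 1440339_at it read 624 and 657 in WT against 320 and 344 in PMCA4-/- fibroblasts, untreated and treated. The 2 genotypes did not overlap, and the log2 difference was -0.96 untreated and -0.93 with phenylephrine, just short of 2-fold. Probe set 1419276_at gave 574 and 606 against 305 and 322, and 1459546_s_at gave 382 and 421 against 198 and 229. Over the 3 probe sets and both pairs the log2 difference ranged from -0.96 to -0.88 with PUMA and from -1.01 to -0.85 with Robust Multiarray Average.

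*Enpp3*, the direct neighbour of *Enpp1*, differed the other way. Probe set 1452384_at read 273 and 219 in WT against 402 and 309 in PMCA4-/- fibroblasts, a log2 difference of 0.56 untreated and 0.49 with phenylephrine. Within each treatment the PMCA4-/- array was the higher one. At 1439260_a_at the values were 247 and 253 against 359 and 274, so that with phenylephrine the genotypes were only 0.11 apart on the log2 scale. At 1427302_at they were 103 and 84.0 against 168 and 146. The other 2 of its 5 probe sets, 1425353_at and 1427303_at, were dim on all arrays and changed sign between the pairs. The gene order on GRCm38.p6 was read from RefSeq over the genes above the filter. In it *Ccn2*, next to *Enpp1*, differed by -0.32 and -0.33 and *Med23*, next to *Enpp3*, by 0.54 and 0.44. Farther out, *Stx7* beyond *Ccn2* differed by 0.40 and 0.40, and *Akap7* beyond *Med23* by 0.07 and -0.03. The sign of the difference thus changed between *Enpp1* and *Enpp3*, and it did not stay the same farther out.

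**Figure D1:**
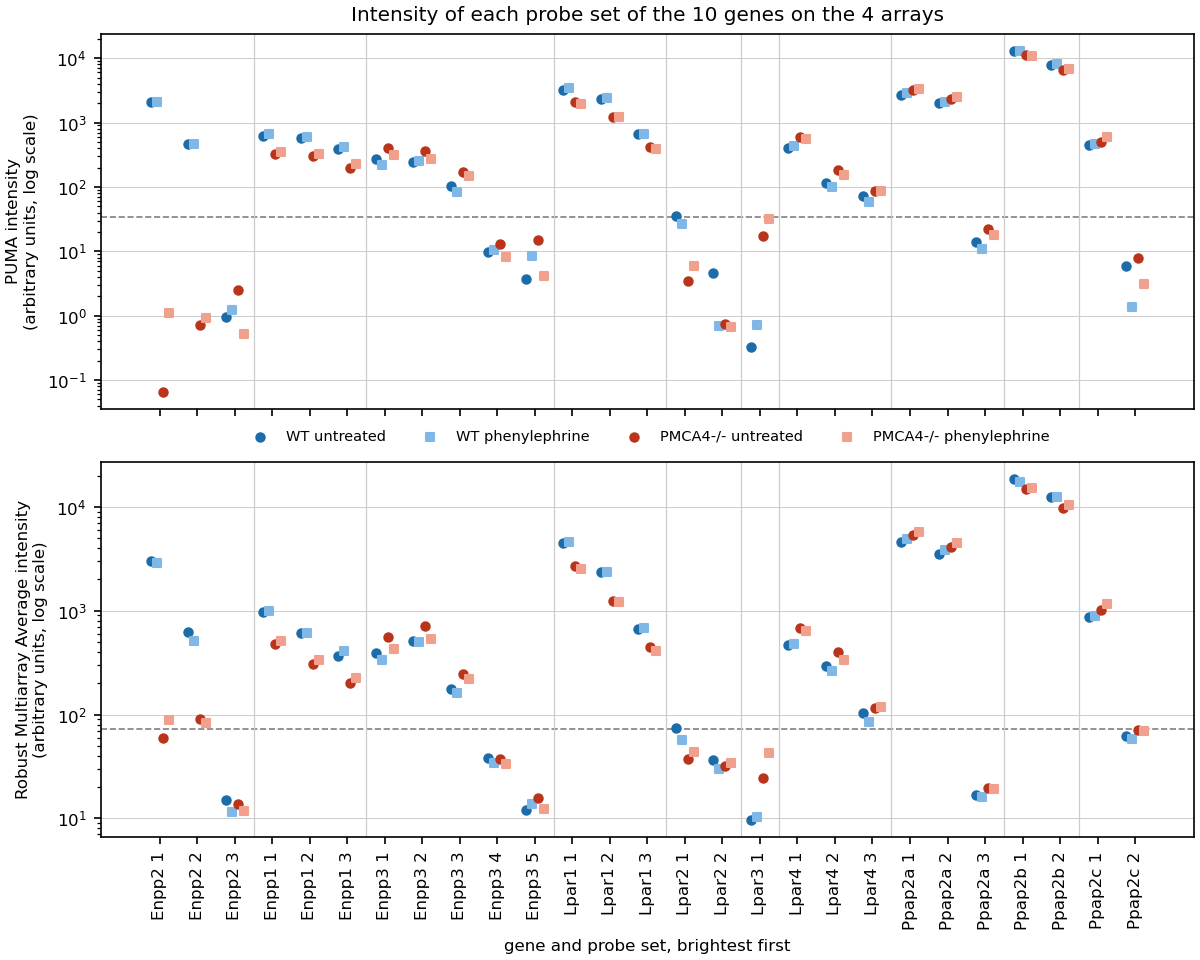
Intensity of each of the 27 probe sets on the 4 arrays, by PUMA (upper panel) and Robust Multiarray Average (lower panel), on log axes in arbitrary units. Each point is 1 array, the dashed line is the median of the untreated WT array, and heights of different probe sets cannot be compared. The first *Enpp2* probe set lies at 2105 and 2062 in WT, and at 0.0654 and 1.09 in PMCA4-/- fibroblasts by PUMA.

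Among the receptors, *Lpar1*, which encodes the LPA receptor found widely in mesenchymal cells, was lower in PMCA4-/- fibroblasts. Probe set 1448606_at read 3225 and 3385 in WT against 2083 and 1924 in PMCA4-/- fibroblasts, a log2 difference of -0.63 untreated and -0.81 with phenylephrine. At 1417143_at the levels were 2292 and 2432 against 1229 and 1229, with differences of -0.90 and -0.98. Probe set 1426110_a_at gave 665 and 668 against 417 and 389. At each of the 3 probe sets both WT arrays were above both PMCA4-/- arrays, and none of the differences reached 2-fold. *Lpar1* transcript thus remained well above the array median in PMCA4-/- fibroblasts, unlike *Enpp2*.

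*Lpar4*, which encodes a receptor of the purinergic-like branch of LPA receptors, was higher in PMCA4-/- fibroblasts at all 3 of its probe sets. At 1439665_at it read 402 and 430 in WT against 604 and 562 in PMCA4-/- fibroblasts, a log2 difference of 0.59 and 0.39. The values at 1434186_at were 115 and 97.9 against 185 and 155, and those at 1452424_at were 72.3 and 57.5 against 86.0 and 87.0. The genotypes did not overlap at any of the 3. The 2 receptors among the members that passed the filter on mean intensity therefore differed in opposite directions, *Lpar1* by 1.55-fold and 1.76-fold lower and *Lpar4* by 1.5-fold and 1.31-fold higher.

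*Lpar2* and *Lpar3*, which encode receptors of the same branch as *Lpar1*, did not pass the filter on mean intensity. *Lpar2* reached 35.1 at 1442291_at in untreated WT fibroblasts, just above the array median, and read 26.2 in treated WT and 3.43 and 5.93 in PMCA4-/- fibroblasts. Its other probe set, 1420576_at, read 4.53 or less on all arrays. With dim values raised to the median, the 1442291_at ratio was 1.03 in the untreated pair, so no fold is given.

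*Lpar3* was read by 1 probe set, 1418723_at, at 0.331 and 0.704 in WT against 17.2 and 31.4 in PMCA4-/- fibroblasts. All 4 values were under the array median, and in the Robust Multiarray Average values, 9.64 and 10.4 against 24.6 and 42.4, they were under it as well. The PMCA4-/- arrays were the higher ones in both estimates. With dim values raised to the median, the PUMA ratio was 1 untreated and 0.999 with phenylephrine, so no fold or bound on it is given.

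At the brightest probe set of each member above the filter, the phosphatase genes differed least between genotypes by PUMA. By Robust Multiarray Average this did not hold for *Ppap2c*, which differed by 0.39 with phenylephrine, against 0.34 for *Enpp3*. *Ppap2a*, which encodes LPP1, read 2660 and 2881 in WT against 3192 and 3363 in PMCA4-/- fibroblasts at 1422619_at, and 1997 and 2109 against 2343 and 2485 at 1422620_s_at. The log2 differences were 0.22 to 0.26 over both probe sets and both pairs, with the PMCA4-/- arrays higher each time. Probe set 1425449_at was dim, at 11.0 to 22.1.

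*Ppap2b*, which encodes LPP3, was lower by a similar amount, with 12889 and 13011 in WT against 11000 and 10750 in PMCA4-/- fibroblasts at 1429514_at, and 7885 and 8198 against 6471 and 6742 at 1448908_at. The log2 differences were -0.29 to -0.23, and at both probe sets the WT arrays were above the PMCA4-/- arrays. *Ppap2c*, which encodes LPP2, read 444 and 463 in WT against 499 and 600 in PMCA4-/- fibroblasts at 1451210_at, which is 0.17 and 0.37 higher on the log2 scale. Its probe set 1420910_at was dim, at 1.38 to 7.90. Within the phosphatases, too, the members did not share a direction.

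**Figure D2:**
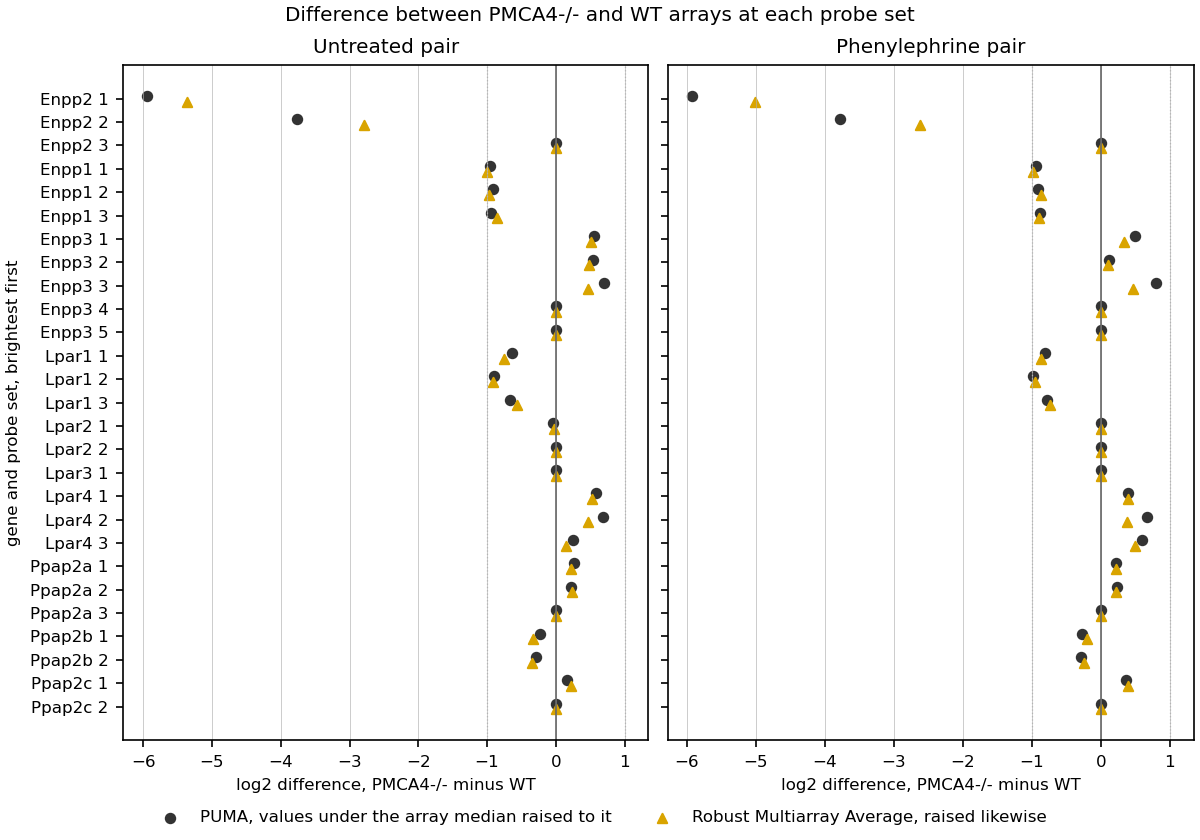
Log2 difference between PMCA4-/- and WT arrays at each of the 27 probe sets, in the untreated pair (left) and the phenylephrine pair (right), by PUMA (circles) and Robust Multiarray Average (triangles), with values under the array median raised to it. Dotted lines mark 2-fold. *Enpp2* lies beyond 2-fold at 2 probe sets. *Enpp1* lies close to the line, *Lpar1* comes as close at 1417143_at, with -0.98 by PUMA with phenylephrine, and the other genes lie inside it or at 0.

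Over the 27 probe sets, 17 were above the array median on all 4 arrays. Of these, 8 were lower in PMCA4-/- fibroblasts in both pairs, 9 were higher in both and 0 changed sign, with PUMA and with Robust Multiarray Average. The 17 bright probe sets had the same sign in both estimates in the untreated pair. Another 7 probe sets were dim on all arrays. The same shares over all probe sets are not given here, nor the share whose genotypes did not overlap. Nothing particular to the members is therefore read from these counts or from the lack of overlap.

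Of the 8 members that passed the filter on mean intensity, 1, *Enpp2*, was at least 2-fold apart in the same direction in both pairs, and it was lower. *Enpp2* passed that filter through its WT arrays alone. Over all 11424 genes, 4.43% were 2-fold or more lower in both pairs and 4.24% were 2-fold or more higher, 8.67% together. The rule that chose the members used this contrast, so nothing is read from their count. At 1.5-fold, *Enpp1* and *Lpar1* joined *Enpp2*, where 9.31% of all genes were lower and 8.83% higher in both pairs. The median log2 difference over all 11424 genes was -0.01 in each pair.

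Phenylephrine was not used to choose the members, and its effect was tested with limma in a model of genotype and treatment over all 11424 genes. The tested spread is that of the effect between the 2 genotypes, with 1 residual degree of freedom. With Benjamini-Hochberg adjustment limma called 0 of the 8 members, and 0% of all genes, while 459 genes, or 4.02%, had an unadjusted p under 0.05. Of the members, *Enpp3* was among those 459. A lack of calls with so few arrays does not show that the levels were equal.

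*Enpp3* was lower with phenylephrine in both genotypes, going from 273 to 219 in WT and from 402 to 309 in PMCA4-/- fibroblasts. The limma estimate was -0.35 ± 0.07 (SE) on the log2 scale, with an adjusted p of 0.978. An intensity trend in the moderation gave an adjusted p of 0.0434 and a filter at the upper quartile gave 0.0288, while the other alternatives gave 0.882 to 1. With Robust Multiarray Average values the limma estimate was -0.23. The second bright probe set did not repeat the pattern in WT, where 1439260_a_at read 247 and 253, and the third did, with 103 and 84.0 in WT against 168 and 146 in PMCA4-/- fibroblasts.

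*Enpp1* and the phosphatase genes moved little. The limma estimates were 0.09 ± 0.07 (SE) for *Enpp1*, 0.10 ± 0.07 for *Ppap2a*, -0.01 ± 0.07 for *Ppap2b* and 0.16 ± 0.09 for *Ppap2c*, with adjusted p-values of 0.978 to 0.992. For the receptors they were -0.02 ± 0.08 for *Lpar1* and -0.01 ± 0.09 for *Lpar4*, with adjusted p-values of 0.987 and 0.996. *Lpar1* and *Lpar4* were slightly higher with phenylephrine in WT but slightly lower in PMCA4-/- fibroblasts. Over the 17 bright probe sets the log2 difference with phenylephrine was -0.33 to 0.14 in WT against -0.39 to 0.27 in PMCA4-/- fibroblasts, beside a median over all genes of 0.04 and 0.03. No bright member probe set therefore reached 1.5-fold with phenylephrine, and 0.0613% of all genes did so in the same direction in both genotypes.

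The fitted *Enpp2* effect of 2.01 ± 1.03 (SE), with a limma adjusted p of 0.978, rests on the PMCA4-/- values of 0.0654 and 1.09, which are both dim. In WT, where *Enpp2* was bright, the levels without and with phenylephrine were 2105 and 2062. With dim values raised to the array median, the estimate was -0.02 ± 0.07 (SE). The limma adjusted p was 0.00436 with an intensity trend and 0.0385 with the filter at the upper quartile, for the same 2 dim values, and 0.992 to 1 under the other alternatives.

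**Figure D3:**
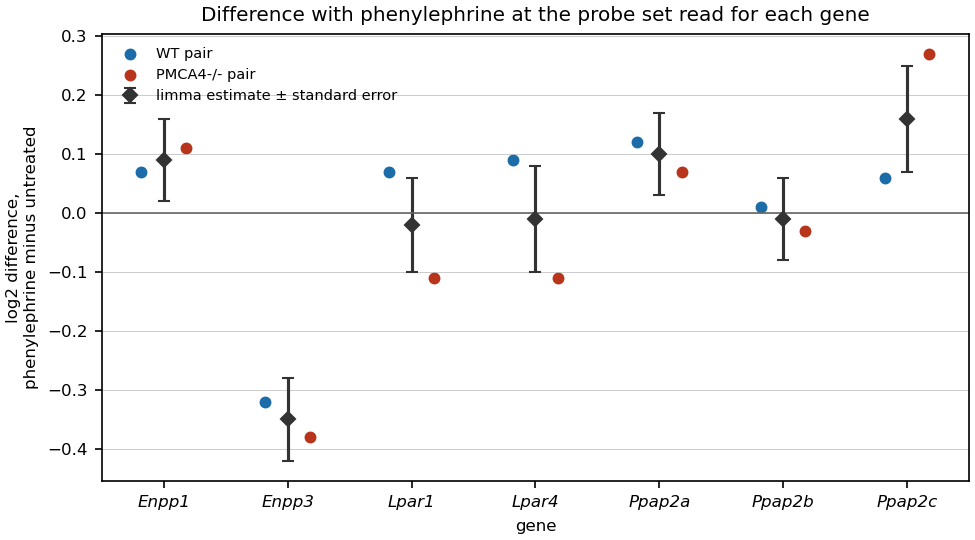
Log2 difference with phenylephrine at the probe set read for each of 7 members, as the WT pair, the PMCA4-/- pair and the limma estimate with its standard error. *Enpp2* is left out because its PMCA4-/- values are dim. The *Enpp3* estimate is -0.35, and the other 6 lie between -0.02 and 0.16.

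The other genes around LPA were taken from lists of enzymes, receptors and related pathways. Of 8 other enzymes listed around LPA formation, not all of which make LPA itself, 5 passed the filter. In both pairs 1 was 2-fold or more higher and 1 was 2-fold or more lower. *Liph*, *Lipi* and *Gdpd3* were dim on all arrays. *Pla2g4a*, a cytosolic phospholipase A2, read 573 and 599 in WT against 1396 and 1411 in PMCA4-/- fibroblasts. *Pla1a*, which encodes a phosphatidylserine-specific phospholipase A1, read 351 and 337 against 85.7 and 126, so *Enpp2* was not alone among the secreted lysophospholipid enzymes in being lower.

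Among the other ENPP genes, 2 of 4 passed the filter and 0 were 2-fold apart. Without phenylephrine *Enpp4* read 436 in WT against 280 in PMCA4-/- fibroblasts, a log2 difference of -0.64, and *Enpp5* read 644 and 411, a log2 difference of -0.65. *Lpar6* was the only other LPA receptor gene above the filter and differed by 0.03 in each pair, with 465 and 483 in WT against 475 and 494 in PMCA4-/- fibroblasts. *Lpar5* was not among the measured genes.

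Of 10 other lipid phosphatase and related genes, 6 passed the filter and 1 was 2-fold apart, namely *Ppapdc3*, which was dim in WT but at 80.3 and 92.4 in PMCA4-/- fibroblasts, higher by at least 2.36-fold and 2.71-fold. Of 8 LPA acyltransferases, which turn LPA or other lysophospholipids into diacyl lipids inside the cell, *Mboat2* was lower, at 79.1 and 66.2 against dim values of 26.0 and 29.4. By PUMA this is at least 2.33-fold and at least 1.95-fold. By Robust Multiarray Average its log2 differences were -0.62 and -0.49, short of 2-fold. These sets, like the 3 member phosphatases, had median log2 differences of 0.16 to 0.58.

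Downstream of the receptors, *Gnai1*, which encodes an α subunit of the Gi proteins that couple to LPA receptors, read 554 and 603 in WT against 3.83 and 3.24 in PMCA4-/- fibroblasts, at least 16.3-fold and at least 17.8-fold lower. The other Gi genes did not share this. *Gnai2* read 4475 and 4793 against 4061 and 3800, and *Gnai3* 2459 and 2605 against 2758 and 2959. Both were named after their values were seen.

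In the related sphingosine-1-phosphate system 8 of 11 genes passed the filter and 1 was 2-fold apart. *Spns2*, the exporter of sphingosine-1-phosphate, read 349 and 302 in WT against 1.5 and 0.520 in PMCA4-/- fibroblasts, at least 10.2-fold and at least 8.90-fold lower. Among 6 of 10 pyrophosphate and nucleotide genes, beside which *Enpp1* acts, *Slc20a1*, a phosphate importer gene, was lower, at 270 and 269 against dim values of 22.4 and 33.7. By PUMA this is at least 7.94-fold and at least 7.92-fold. Robust Multiarray Average gave smaller differences for *Slc20a1*, -2.09 and -1.76 on the log2 scale. Limma called 0 genes of any of these lists for phenylephrine.

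**Figure D4:**
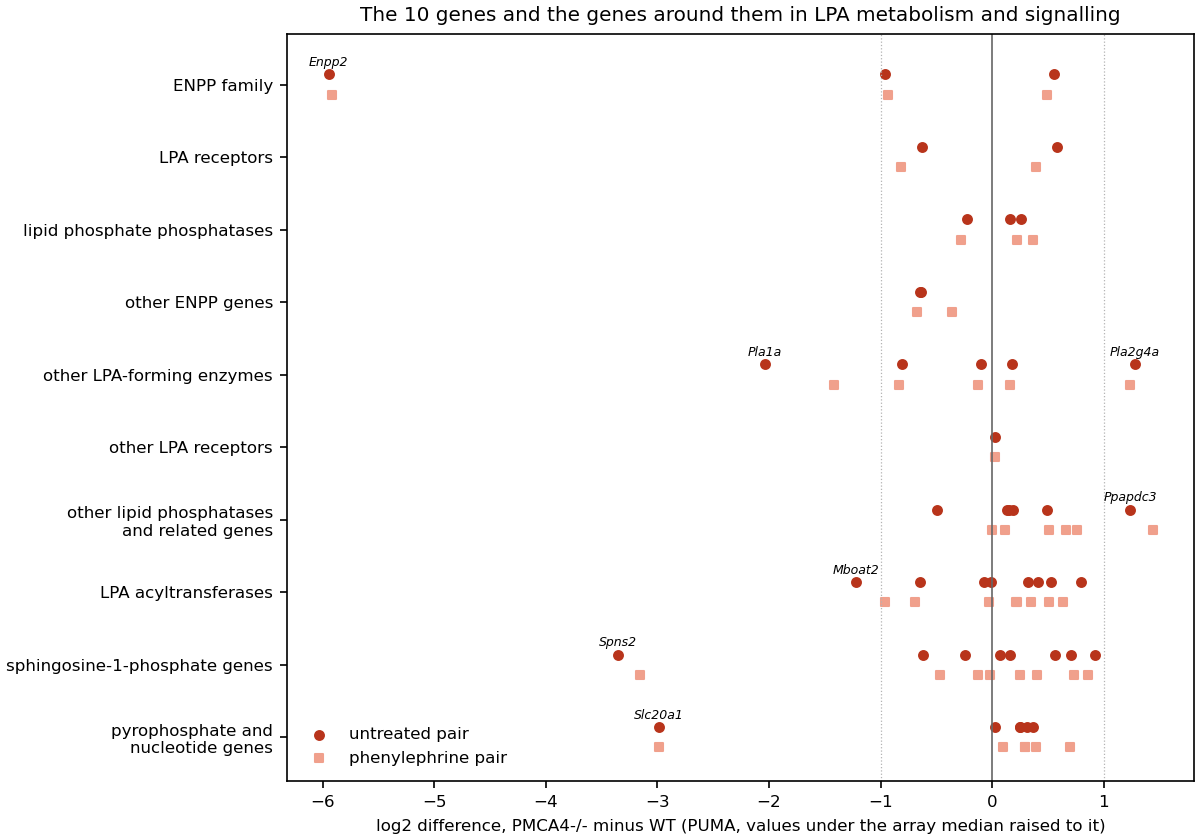
Log2 difference between PMCA4-/- and WT arrays, with dim values raised to the array median, for each gene above the filter in the 3 member groups and 7 related lists. Circles show the untreated pair and squares the phenylephrine pair, dotted lines mark 2-fold, and genes beyond 1.2 in the untreated pair are named. *Enpp2* lies farthest to the left, followed by *Spns2* and *Slc20a1*.

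The genes whose pattern over the 4 arrays was most like that of *Enpp2* were sought among the other 11423 genes, by the Euclidean distance between log2 profiles centred on their own mean, with dim values raised to the array median. The 5 nearest were *Ccl11*, which encodes the chemokine eotaxin, at a distance of 0.109, *Cadm2*, a cell adhesion gene, at 0.134, *Vstm2a* at 0.279, *Atp8b1*, a phospholipid flippase gene, at 0.338 and *Icam1*, a leukocyte adhesion molecule gene, at 0.511. All 5 were bright in WT but dim in PMCA4-/- fibroblasts, so the distance measures only how bright they were in WT. *Icam1*, for example, read 1438 and 1494 in WT against 5.63 and 18.8 in PMCA4-/- fibroblasts.

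For *Lpar1* the nearest profiles were those of *Cdk12*, a transcriptional kinase gene, at 0.0162, *Mef2a*, a MADS-box transcription factor gene, at 0.0310 and *Rmnd5b* at 0.0327. *Mef2a* read 1501 and 1570 in WT against 974 and 917 in PMCA4-/- fibroblasts, the same shape as *Lpar1* with 3225 and 3385 against 2083 and 1924. With 4 arrays and 1 main difference between them, many genes share such a profile.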

How the data were processed

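RNA of 4 conditions was measured on 1 Affymetrix array each. MOE430A is the array named in the paper, and 45037 probe sets are tabulated. Values deposited by the authors are linear intensities, 1 table from PUMA and 1 from Robust Multiarray Average. The authors' tables also hold 12 comparison columns, a score (the signed fold change of a pair of arrays) and a fraction (the probability of a positive log ratio), which were not used. A further deposited table of 180148 intensities equalled the PUMA values within a relative tolerance of 0.0001. The submitters' processing notes name MAS5 and RMA, without versions, and no source used here gives the annotation release or genome build. Beyond this, the number of arrays limits the precision.

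PUMA intensities were log2-transformed without a pseudocount. Of the probe sets, 37818 had 1 gene symbol, brought to RefSeq symbols (GRCm38.p6) where possible: 31088 were current, 3520 were updated by accession, 394 by older symbol and 2816 kept as given. Each gene was read from its brightest probe set on average, and counted if that mean exceeded 35.15, the median of such means. Differences between genotypes were taken within the untreated and the phenylephrine pair, and counts used 2-fold in both pairs. Phenylephrine was tested with limma 3.58.1 (R 4.3.3; lmFit and eBayes with genotype as the other term, Benjamini-Hochberg over 11424 genes, threshold 0.05), after a test on simulated data. These p-values measure only the spread between these arrays.

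Named were all member probe sets, list genes at least 2-fold apart in both pairs (in a list with none, those with the largest mean difference) and the nearest profiles to *Enpp2* and *Lpar1*. Members, lists and tests were chosen with earlier results of these data known. Alternatives were Robust Multiarray Average values, centring on array medians, quantile normalization, dim values raised to the array median, the median over probe sets, thresholds of 1.5-fold and 4-fold, no filter, an upper-quartile filter (256.6), an intensity trend and treatment alone in the model. Results on 2 of the gene lists are not reported here.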

Additional observations from a re-analysis of the deposited data

Results flagged for a closer look

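In 4 members the phenylephrine difference had opposite signs in the 2 genotypes, each measured on 1 array per condition, and the difference between the genotypes was not tested. *Enpp2* differed by -0.03 on the log2 scale in WT and 4.06 in PMCA4-/- fibroblasts, a gap of 4.09, where the PMCA4-/- values of 0.0654 and 1.09 were both under the array median. *Lpar1* differed by 0.07 and -0.11, a gap of -0.18. *Lpar4* differed by 0.09 and -0.11, a gap of -0.20. *Ppap2b* differed by 0.01 and -0.03, a gap of -0.05.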

How the results depend on the processing

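*Enpp2* was lower in PMCA4-/- fibroblasts under every alternative run. Its log2 difference of -14.97 untreated and -10.89 with phenylephrine became -5.67 and -5.01 with Robust Multiarray Average values, -5.95 and -5.92 with dim values raised to the array median and -9.35 and -9.0 as the median over probe sets, mostly against dim values, whose differences are no bounds. The dim probe set 1443224_at turned from 1.40 to -0.14 untreated and from -1.28 to 0.03 with phenylephrine under Robust Multiarray Average. Over the 54 probe set differences and 4 alternatives, 186 of 216 values moved by less than 1.5-fold, and 5 changed sign, all at probe sets dim on all arrays. Every larger move came from Robust Multiarray Average values or from raising dim values. Centring could move little, since the array medians were 33.98 to 34.03, and quantile normalization moved no value by 1.5-fold or more. All 96 list medians under the alternatives moved by less than 1.5-fold.

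The count of members 2-fold apart was 1, and 3 at 1.5-fold or without a filter. Without a filter the added members were *Lpar2* and *Lpar3*, both dim. Over all genes the count was 990, and 2073 at 1.5-fold, 385 at 4-fold, 2293 without a filter, 371 with the upper-quartile filter and 695 with Robust Multiarray Average values. Limma called 0 genes for phenylephrine, 29 with an intensity trend and 19 with the upper-quartile filter. Both settings called *Enpp3*, at -0.35, and *Enpp2*, at 2.01, and raising dim values turned the *Enpp2* estimate to -0.02. No paired analysis was possible because each condition had 1 array, which leaves no replicate number to serve as a block, while the limma model already holds genotype as a term. Leaving out an array was not possible for the same reason. Dim probe sets set the limit. By PUMA the *Enpp2* level in PMCA4-/- fibroblasts has a bound only, and no fold can be given for *Lpar2* and *Lpar3*.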
